A study of Mustela putorius furo with 8 samples.

Results

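Cluster 16 of the cystic fibrosis (CF) cultures was a group of 354 cells that the study's deposited cell table placed in its centroacinar class, out of 11345 retained CF cells and 32945 retained cells in all. Its members were taken from the cluster column of that table, which came from the same expression values, and differences between its cells and other cells are given here as a description with no test. The series compared polarized ductal epithelium of WT ferrets with that of CF ferrets, genotype CFTR KO/KO, at 2, 5, 7 and 9 days at an air-liquid interface (ALI). Ductal cells came from the pancreata of newborns of 1 to 3 days, went through 10 passages and were then seeded on permeable inserts. Each library held pooled cells of 3 donors of its genotype, no cell was assigned to a donor here, and each genotype and day had 1 library. There was therefore no replicate, cells are not replicates, and each interval below is a 95% interval that covers counting error only.

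Centroacinar cells sit where the smallest pancreatic ducts end inside an acinus, and they are known for Notch signaling and for its target HES1. Ductal and centroacinar cells secrete the bicarbonate-rich fluid that flushes digestive enzymes, a task in which the CFTR chloride channel takes part, and CF ducts are blocked early in life. Basal cells of stratified epithelia, a different cell type, rest on the basement membrane and are defined by the transcription factor TP63 together with keratin 5.

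No cell of the cluster was found among the 4499 CF cells of day 2, which allows a share of up to 0.0667% by the limit of 3 counts. At day 5 the cluster held 62 of 2750 cells (2.25%, Clopper-Pearson interval 1.73 to 2.88%), at day 7 it held 174 of 1607 (10.8%, 9.35 to 12.5%) and at day 9 it held 118 of 2489 (4.74%, 3.94 to 5.65%). The share was highest in the day 7 library, and the 3 intervals did not overlap. With 1 library per day, culture day and library cannot be told apart. Within the centroacinar class, which had 14 CF clusters and 5826 cells, cluster 16 made up 3.78% at day 5, 15.9% at day 7 and 6.03% at day 9.

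**Figure D1:**
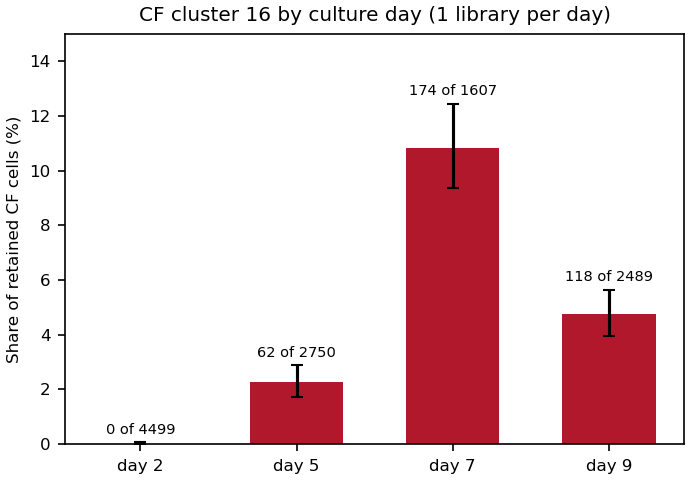
Share of retained CF cells in cluster 16 (y axis, percent) in the library of each culture day (x axis), with exact 95% binomial intervals and the number of cells above each bar. The bar of day 7, 10.8%, stands above those of day 5 (2.25%) and day 9 (4.74%), and day 2 has none.

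The cells were deeply sampled. Their median count of UMIs (unique molecular identifiers, which count captured transcripts) was 18029, 22902 and 17946 on days 5, 7 and 9, against 23024, 23805 and 20160 in the other CF cells, and no member had fewer than 3000 UMIs. The median mitochondrial share of UMIs was 5.13%, 5.61% and 4.28% in the cluster and 6.83%, 5.74% and 5.81% in the others. Summed over cells, the cluster held 1216031 UMIs at day 5, 4229756 at day 7 and 2205824 at day 9, so the day 5 values carried the widest intervals. Pairs of CF libraries shared 1 to 9 cell barcodes, and none of these belonged to a member of the cluster.

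The class label was checked against the markers that the study used for it. Of 6 centroacinar markers, 5 were in the count table and 4 reached 10 CPM (the UMIs of a gene scaled to a common library total) on either side at day 9. At day 9 none was at least 2-fold higher in cluster 16 than in the other CF cells and 2 were at least 2-fold lower, against 2.79% and 4.5% of all genes, and 1 of these 2, S100A4, reached 10 CPM in the other cells alone and so had to be lower. S100A6, a calcium-binding protein, was at 7423, 8170 and 10412 CPM in the cluster at days 5, 7 and 9, against 30686, 33595 and 45262 CPM in the others, which was 4.35-fold lower at day 9 (4.29 to 4.40). It was still among the 5 most abundant transcripts of the cluster on each day, and its level over all days ranked 28 of the 30 CF clusters. S100A4 gave 0, 1 and 2 UMIs on the 3 days, with 29.8, 14 and 23.7 CPM in the others. PROM1, a surface glycoprotein of progenitor cells, gave 0, 1 and 0 UMIs, with 9.65, 9.44 and 8.12 CPM in the others. Keratin 7 was close to equal, at 3127, 3444 and 3965 CPM against 2745, 3475 and 3578 CPM. WSB1 differed by −0.24 on the log2 scale at day 9, but by −0.73 with equal weight per cell and −0.90 with equal weight per cluster. Of the other CF cells, 58.8%, 64.3% and 77.6% on the 3 days were of the centroacinar class too. Class markers therefore had little room to be 2-fold higher. The values show only that S100A6, S100A4 and PROM1 were lower than in the pool of all other CF cells. Over all days S100A6 was at 8698 CPM in cluster 16, and lower in clusters 27 and 23 of the class, at 4064 and 8566 CPM. Clusters 0, 1, 11, 3 and 14 of the class were close, at 11014, 11161, 11638, 12300 and 13265 CPM. Clusters 7 and 15, also of the class, were far higher, at 88257 and 49137 CPM. The cells are called cluster 16 below. Of the study's 6 ductal markers, 0 of the 5 compared at day 9 differed by 2-fold in either direction, against 7.28% of all genes. Keratin 19 was at 5301 CPM against 3951 CPM. Of 7 textbook duct genes compared at day 9, 0 were higher and 2 lower (2.79% and 4.5% of all genes). The lower genes were SOX9 and keratin 8. SOX9 and CFTR passed the 10 CPM filter in the other cells alone, so SOX9 had to be lower. Keratin 8 passed on both sides, with a log2 difference of −1.07.

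Other cell types were checked with marker lists. The acinar genes CEL, CELA1, PTF1A and BHLHA15 had no UMI in any of the 354 cells, and the other CF cells had almost none. Only 5 of the 13 acinar enzyme and factor genes listed were in the count table. AMY2B, PRSS1 and CPA1 were among those not in it, so their level is not known here. The study's own 7 acinar markers summed to 941, 869 and 777 CPM against 684, 576 and 471 CPM. At day 9, 0 of the 7 were called higher or lower (2.79% and 4.5% of all genes), with a median difference of 0.59 against 0.19 over all genes. Of the endocrine markers 14 had none, including insulin, glucagon, somatostatin and NEUROG3, while the transcription factor ISL1 was at 36.2, 36.4 and 31.3 CPM against 26.1, 26.4 and 21.3 CPM. PTPRC of blood cells, PECAM1 and CDH5 of endothelium, DCN, LUM and PDGFRB of fibroblasts, DES of muscle, FOXJ1 of ciliated cells and FOXI1 of ionocytes also had no UMI. Other members of these lists did: at day 9 the summed level was 8.16 CPM for ciliated genes against 4.64 CPM in the others, 106 against 70.3 CPM for ionocyte genes and 112 against 740 CPM for smooth muscle genes. The ionocyte sum of the cluster came from ATP6V0D2 alone, since FOXI1, ASCL3 and ATP6V1G3 had no UMI there on any day. The summed level of the study's 5 proliferation markers was 0, 1.18 and 0.91 CPM on the 3 days, against 15.8, 8.46 and 1.44 CPM in the others.

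The overall comparison was made on UMIs summed over the cluster and over all other CF cells of the same library, expressed as CPM, with a gene called when log2(CPM + 1) differed by at least 1 and either side reached 10 CPM. At day 5, 555 genes were called higher in cluster 16 (6.7% of 8289) and 349 lower (4.21%). At day 7 the numbers were 193 (2.32% of 8318) and 327 (3.93%), and at day 9 they were 229 (2.79% of 8209) and 369 (4.5%). Calls in either direction made up 10.9% of genes at day 5, 6.25% at day 7 and 7.28% at day 9. On all 3 days, 87 genes were higher (1.11% of 7823) and 202 lower (2.58%). The median difference over all genes compared was 0.25, 0.16 and 0.19 on the log2 scale. The 5 most abundant genes made up 4.36% of the cluster's UMIs at day 9 and 11.2% in the other cells, where S100A6 alone made up 4.53%. With TMM scaling, which removes most of that shift (median −0.03 at day 9), the share of calls that were higher went from 61.4% to 26.6% at day 5, from 37.1% to 20.5% at day 7 and from 38.3% to 18.3% at day 9. The median with TMM was −0.08, −0.03 and −0.03 on days 5, 7 and 9, which is under 0. Log2 differences up to somewhat above the unscaled medians therefore have no settled direction.

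Few genes belonged to cluster 16 alone. Of 7960 genes with at least 10 CPM in it, 209 had their highest level of all 30 CF clusters there, but 0 exceeded the next cluster by 2-fold. The 5 with the largest margin were MISP3, ASS1, RBBP9, LYPD6B and TBCK. MISP3 was at 11.4 CPM over all days against 6.4 CPM in the next cluster, a margin of 1.77-fold, and the other 4 margins were 1.34-fold to 1.45-fold. By the number of such maxima cluster 16 ranked 10 of 30. The most were in cluster 27 (2271) and cluster 23 (1871), whose median cell had fewer than 5000 UMIs.

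The 15 genes with the largest excess at day 9 included enzymes, transporters and secreted or membrane-bound signals. ASS1, argininosuccinate synthase of the urea and arginine pathway, was at 178, 152 and 144 CPM in the cluster on days 5, 7 and 9, and at 34.4, 42.3 and 33.2 CPM in the other cells. The ratio was 5.17 (4.48 to 5.95), 3.60 (3.27 to 3.96) and 4.33 (3.83 to 4.89), so the excess was present in each library. NPPC, the precursor of C-type natriuretic peptide, was at 51.8, 53 and 49.4 CPM against 10.1, 15.5 and 10.9 CPM, 4.52-fold higher at day 9 (3.64 to 5.56). SCN4B, a beta subunit of voltage-gated sodium channels, was at 74.0, 46.1 and 31.7 CPM against 21.7, 16.6 and 5.27 CPM. Its level was lower on each later day in both sets of cells. POLR1A, the largest subunit of RNA polymerase I, was at 32.1, 67.1 and 35.8 CPM against 9.85, 12.1 and 8.74 CPM, with its peak at day 7. SLC27A6, a fatty acid transport protein, PPP1R14C, an inhibitor of protein phosphatase 1, and COL14A1, a collagen that decorates fibrils, were 3.22-fold to 4.69-fold, 2.42-fold to 4-fold and 4.35-fold to 6.58-fold higher over the 3 days. TMEM229A depended on the day, with ratios of 1.11 at day 5 (0.887 to 1.36), 2.65 at day 7 and 4.22 at day 9. The remaining members of the 15 were LOC101690049, LOC101675320, DLL1, CCBE1, ST6GALNAC2, RASA3 and PDZK1. Of the 15, ASS1, NPPC, POLR1A, PPP1R14C and PDZK1 had their highest level over all days in cluster 16, and the others were higher elsewhere. COL14A1 was at 16.1 CPM in cluster 16 and 23.9 CPM in cluster 14, and DLL1 at 121 CPM and 171 CPM in cluster 27. SCN4B was at 46.4 CPM and 72.8 CPM in cluster 1, and TMEM229A at 76.6 CPM and 226 CPM in cluster 24.

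Of the basal-cell genes, TP63 and DLK2 were called higher in the cluster on all 3 days. TP63, the basal transcription factor, was at 214, 225 and 176 CPM in the cluster against 81.2, 84.0 and 55.5 CPM in the others, 3.18-fold higher at day 9 (2.85 to 3.53). Its level over all days, 209 CPM, was the second highest of the 30 clusters, after cluster 27 with 280 CPM. At day 9, 94.1% of members had a TP63 UMI and 42.3% of other cells did, and after thinning each cell to 3000 UMIs the shares were 37.3% (28.6 to 46.7) and 16.2% (14.6 to 17.8). DLK2 was at 33.7, 43.7 and 14.5 CPM against 13.8, 8.33 and 3.72 CPM. Keratin 5 was at 1025, 937 and 656 CPM against 540, 607 and 357 CPM, a ratio of 1.84 at day 9 (1.74 to 1.94), which was under the threshold, and its level over all days ranked 11 of the 30 clusters. ITGA6, the integrin alpha 6 chain that anchors basal cells, had a ratio of 1.47 at day 9, also under the threshold. Over the basal list 2 of the 4 members compared at day 9 were called higher and 0 lower (2.79% and 4.5% of all genes), with a median difference of 1.26 against 0.19 over all genes. The 2 were TP63 and DLK2, and DLK2 reached 10 CPM in the cluster alone at day 9, so it had to be higher. Keratin 15 was at 5.76, 9.46 and 2.72 CPM against 10.2, 3.34 and 1.55 CPM.

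The most abundant transcripts with an excess on all 3 days included secreted growth regulators and a receptor. They were picked after their values were seen, from the 15 most abundant of the 87 genes. IGFBP3, which binds insulin-like growth factors, was at 2716, 1956 and 2659 CPM against 892, 807 and 868 CPM. Its level over all days, 2279 CPM, was the highest of any CF cluster, with clusters 0 and 3 close at 2068 and 1983 CPM. PDGFA, a platelet-derived growth factor chain, was at 467, 421 and 360 CPM against 143, 166 and 133 CPM, also the highest. FGFR2, the receptor for epithelial fibroblast growth factors, was at 132, 148 and 127 CPM against 46.7, 43.7 and 37.5 CPM. The phosphatase DUSP9, which turns off MAP kinases, and GAS6, a ligand of TAM receptors, were 3.12-fold and 2.46-fold higher at day 9. CRYAB, a small heat-shock protein, was 2.38-fold higher at day 9 and at its highest of all clusters.

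**Figure D2:**
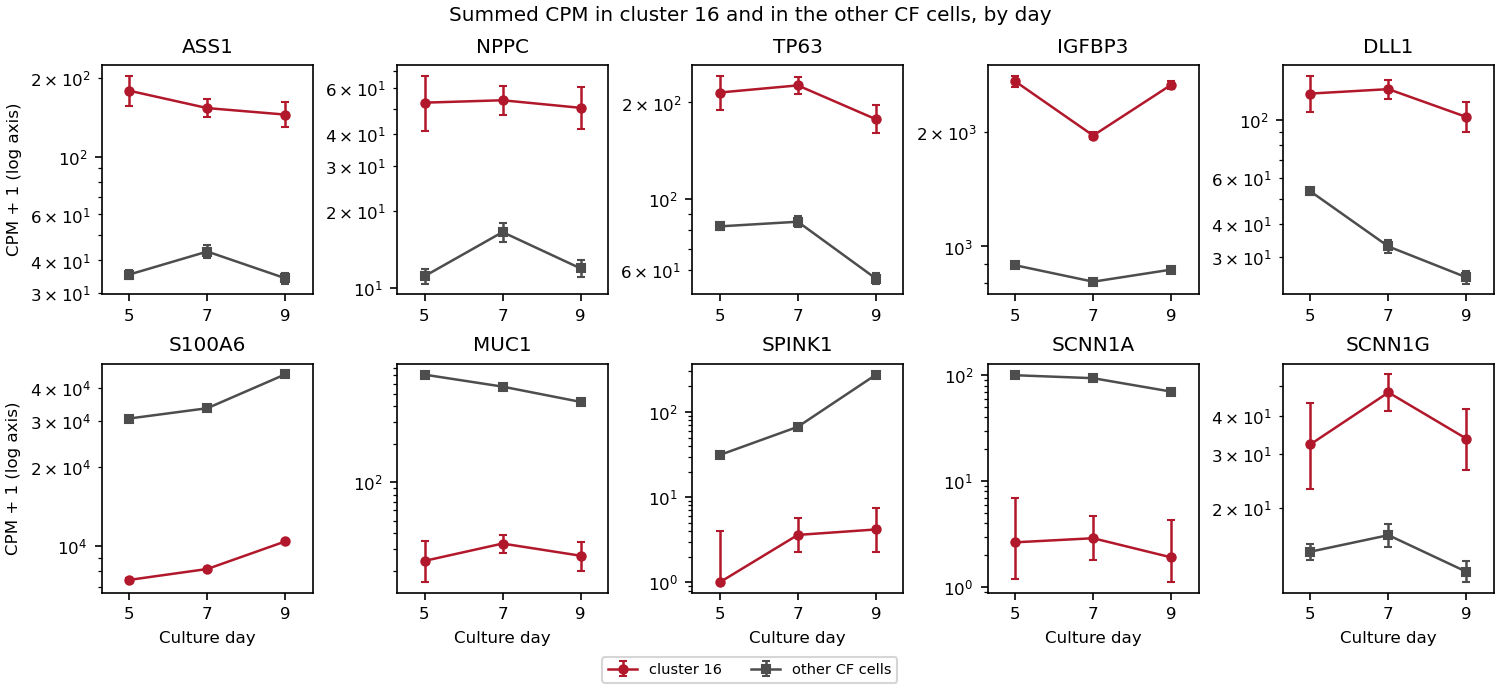
Summed level of 10 genes (y axis, CPM + 1, log axis) by culture day (x axis) in cluster 16 (red circles) and in all other CF cells (grey squares), with exact 95% Poisson intervals of the counts. ASS1, NPPC, TP63, IGFBP3, DLL1 and SCNN1G were above the other cells on each day, and S100A6, MUC1, SPINK1 and SCNN1A below them.

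Of the Notch list, 2 ligands were called higher on all 3 days. DLL1 was at 125, 130 and 102 CPM against 52.3, 31.8 and 24.0 CPM, and JAG2 at 108, 80.4 and 62.6 CPM against 34.2, 32.8 and 26.6 CPM. The JAG2 difference at day 9 (1.21 on the log2 scale) was 0.99 with TMM, 0.36 with equal weight per cell and 0.05 when each other cluster had equal weight. The receptor NOTCH2 was at 25.5, 29.3 and 33.6 CPM against 55.9, 64.5 and 50.4 CPM, called lower at days 5 and 7 and not at day 9. The target HES1 was at 1499, 1504 and 941 CPM against 845, 697 and 516 CPM, the second highest of the 30 clusters, with a ratio of 1.82 at day 9 (1.74 to 1.91). Over the Notch list, 2 of 6 members compared at day 9 were called higher and 0 lower (2.79% and 4.5% of all genes), 4 and 1 of 7 at day 7 (2.32% and 3.93%), and 3 and 1 of 7 at day 5 (6.7% and 4.21%). Among these, HEY1 reached 10 CPM in the cluster alone at days 5 and 7 and so had to be higher there. At day 9 it was under 10 CPM on both sides.

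Members of the BMP and TGF-beta lists were called in part. The inhibitory SMAD6 and SMAD7, which are induced by these pathways and restrain them, were at 57.6, 46.3 and 33.6 CPM against 24.0, 20.1 and 16.8 CPM, and at 207, 227 and 226 CPM against 69.4, 108 and 109 CPM. SMAD9, a BMP signal carrier, was 3.35-fold higher at day 9 (2.40 to 4.58) and ID4, a BMP target, 2.55-fold higher (2.37 to 2.73). Of 9 BMP response genes compared at day 9, 3 were higher and 0 lower (2.79% and 4.5% of all genes), and the median difference was 0.87 against 0.19 over all genes. The 3 were SMAD7, SMAD9 and ID4, and SMAD9 reached 10 CPM in the cluster alone, so it had to be higher. SMAD6 was called at days 5 and 7 and not at day 9 (0.95 on the log2 scale), SMAD7 was under the threshold with TMM scaling (0.82), and SMAD9 was under it with equal weight per cluster (0.83). Of 11 TGF-beta targets compared at day 9, 2 were higher and 2 lower (2.79% and 4.5% of all genes). The higher ones were SMAD7 and the crosslinking enzyme TGM2 (30.4 against 8.64 CPM). TGM2 passed the filter in the cluster alone and so had to be higher. The calls were 2 and 2 of 11 at day 7 (2.32% and 3.93%), and 6 and 1 of 10 at day 5 (6.7% and 4.21%). The list medians on days 5, 7 and 9 were 1.04, 0.82 and 0.71, against 0.25, 0.16 and 0.19 over all genes. TGFBI (3.63 against 30.9 CPM) and INHBA (3.17 against 20.9 CPM) passed the filter in the other cells alone.

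Several epithelial surface and secretory genes were far lower in the cluster. Of 13 measured mucins and trefoil factors, 9 reached 10 CPM at day 9, 7 of them in the other cells alone, and a gene that passed in that way had to be lower in the cluster. MUC1, a membrane mucin, was at 23.0, 31.9 and 25.4 CPM in the cluster against 706, 568 and 430 CPM, 16.9-fold lower at day 9 (13 to 22.4). This was shared with other clusters of the class. Over all days MUC1 was at 28.6 CPM in cluster 16, and at 11.2, 11.9, 34.6 and 36.9 CPM in clusters 3, 11, 14 and 5. MUC16 was at 6.58, 5.44 and 8.61 CPM against 126, 128 and 151 CPM. TFF2, a secreted trefoil peptide, gave 0, 9 and 10 UMIs, at least 11.5-fold lower at day 5 and 46.8-fold lower at day 9 (25.5 to 97.7). It was low in clusters 3 and 14 too, at 4.15 and 4.56 CPM over all days, against 2.48 CPM in cluster 16. At day 9 only the other cells reached 10 CPM for 6 of the 10 centroacinar progenitor markers that passed, 4 of 5 gastric surface genes, 4 of 5 antimicrobial genes and 2 of 3 airway secretory genes, so no count of lower members is given for these lists.

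The 10 genes with the largest deficit at day 9 included several secreted or surface proteins. SPINK1, a trypsin inhibitor, gave 0, 11 and 7 UMIs, against 30.3, 66.2 and 273 CPM in the others, 86.1-fold lower at day 9 (41.8 to 214). CXCL17, a mucosal chemokine, was 88.9-fold, 119-fold and 74.9-fold lower on the 3 days. MMP7, the matrix protease matrilysin, was at 4.11, 5.91 and 10.9 CPM against 278, 190 and 536 CPM. PSCA, a surface antigen of differentiated epithelium, was at 4.11, 6.86 and 4.08 CPM against 207, 207 and 181 CPM. A long noncoding RNA, LOC101679224, was at 13.2, 20.3 and 21.3 CPM against 1232, 1020 and 1078 CPM. TFF2, SCNN1A, LOC101676065, LOC101680039 and LOC101693702 completed the 10. In clusters 14 and 3 SPINK1 was at 1.72 and 2.80 CPM and CXCL17 at 6.22 and 2.20 CPM at day 9, so both were low in all 3 clusters. Over all days SPINK1 was at 2.35 CPM in cluster 16, above clusters 0 and 1 with 0.134 and 0 CPM. It was at 429 and 775 CPM in clusters 18 and 19. Against other centroacinar cells alone, its log2 difference at day 9 went from −6.04 to −3.71. Over all days MMP7 was at 8.12 and 22.0 CPM in clusters 14 and 3, against 7.06 CPM in cluster 16. PSCA was at 19.9 and 3.72 CPM in clusters 14 and 3, against 5.62 CPM in cluster 16.

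Sodium channel subunits went in opposite directions. SCNN1A, the alpha subunit that the epithelial sodium channel needs for conductance, gave 2, 8 and 2 UMIs in the cluster (1.64, 1.89 and 0.91 CPM) against 99.1, 92.9 and 69.1 CPM, a ratio of 0.0131 at day 9 (0.00159 to 0.0474). Over all days it was at 1.57 CPM, the lowest of the CF clusters, and clusters 3, 11, 5 and 14 were close, at 1.93, 1.97, 2.36 and 2.56 CPM. SCNN1G, the gamma subunit, was at 31.3, 46.6 and 32.6 CPM against 13.4, 15.3 and 11.4 CPM, 2.86-fold higher at day 9 (2.20 to 3.66), and at its highest of the 30 clusters. Of the anion and water transport list 0 were higher and 2 lower of 4 at day 5 (6.7% and 4.21% of all genes), and on the later days 1 and 2 of the 5 that passed did so in the other cells alone. The cotransporter SLC12A2 was at 63.3, 58.9 and 50.8 CPM against 149, 150 and 156 CPM, and the calcium-activated chloride channel ANO1 at 36.2, 23.4 and 24.9 CPM against 82.9, 82.0 and 74.2 CPM. The water and glycerol channel AQP3 was at 396, 319 and 323 CPM against 502, 267 and 139 CPM, called higher at day 9 (1.21 on the log2 scale) but under the threshold with TMM (0.99) and with equal weight per cluster (0.65).

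CFTR ranked 17 of the 30 CF clusters in cluster 16, and the highest level, 44.2 CPM, was in cluster 27. It gave 2, 20 and 14 UMIs in the cluster (1.64, 4.73 and 6.35 CPM) against 8.81, 12 and 11.6 CPM, a ratio of 0.546 at day 9 (0.296 to 0.923). The study describes its homozygous KO ferrets as lacking CFTR mRNA and protein, while UMIs were assigned to the gene in these cells. Where in the gene these counted reads lie was not given in the sources used here, so the level does not check the genotype. PDX1, the pancreatic master regulator, was at 9.05, 5.67 and 5.44 CPM against 4.63, 4.95 and 4.39 CPM, and the ratio at day 9, 1.24, had an interval of 0.63 to 2.21. SOX9, a ductal and centroacinar transcription factor, gave 2, 3 and 1 UMIs in 354 cells, with 5.86, 7.61 and 12.3 CPM in the others, a ratio of 0.0367 at day 9 (0.000928 to 0.205). Over all days SOX9 was at 0.784 CPM in cluster 16, 0.556 CPM in cluster 14 and 1.27 CPM in cluster 0, against 38.6 CPM in cluster 23. PAX6 was at 68.3, 58.9 and 41.3 CPM against 68.5, 56.8 and 47.8 CPM. SOX2 gave no UMI at days 5 and 9. Keratin 8 was lower on all 3 days, at 386, 451 and 533 CPM against 981, 953 and 1119 CPM, although its log2 difference at day 9 (−1.07) was −0.91 with equal weight per cell or per cluster, and keratin 18 was at 208 CPM against 372 CPM at day 9. Over all days keratin 8 was at 464 CPM in cluster 16, 464 CPM in cluster 1 and 470 CPM in cluster 2.

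PIK3R1, the regulatory subunit of PI3 kinase, was called higher on all 3 days, at 225, 200 and 168 CPM against 95.7, 93.4 and 81.0 CPM, and its log2 difference of 1.05 at day 9 became 0.83 with TMM. Of 6 members of the EGFR list compared at day 9, 0 were higher and 3 lower (2.79% and 4.5% of all genes), and 1 of the 3 passed the filter in the other cells alone. The ligands AREG and EREG and the receptor ERBB3 were lower on all 3 days, ERBB3 at 4.11, 3.31 and 5.44 CPM against 28.3, 30.5 and 27.4 CPM, while HBEGF was at 112 against 57.7 CPM at day 9. Of 16 interferon-stimulated genes on the list 6 were compared at day 9, and MX2 passed in the other cells alone. MX2 gave 0, 1 and 0 UMIs against 46.2, 50.5 and 31.2 CPM, the lowest of the 30 clusters, and ISG20 was called lower, at 29.5 against 77.8 CPM. DHRS3, which reduces retinal, was at 319, 295 and 341 CPM against 144, 150 and 152 CPM, the highest of all clusters, with a log2 difference at day 9 of 1.16, or 0.94 with TMM. Of the glycolysis and hypoxia list 1 of 15 members compared at day 9 was called higher, against 2.79% of all genes. It was the glucose transporter SLC2A1, whose log2 difference was under the threshold (0.81) with TMM.

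**Figure D3:**
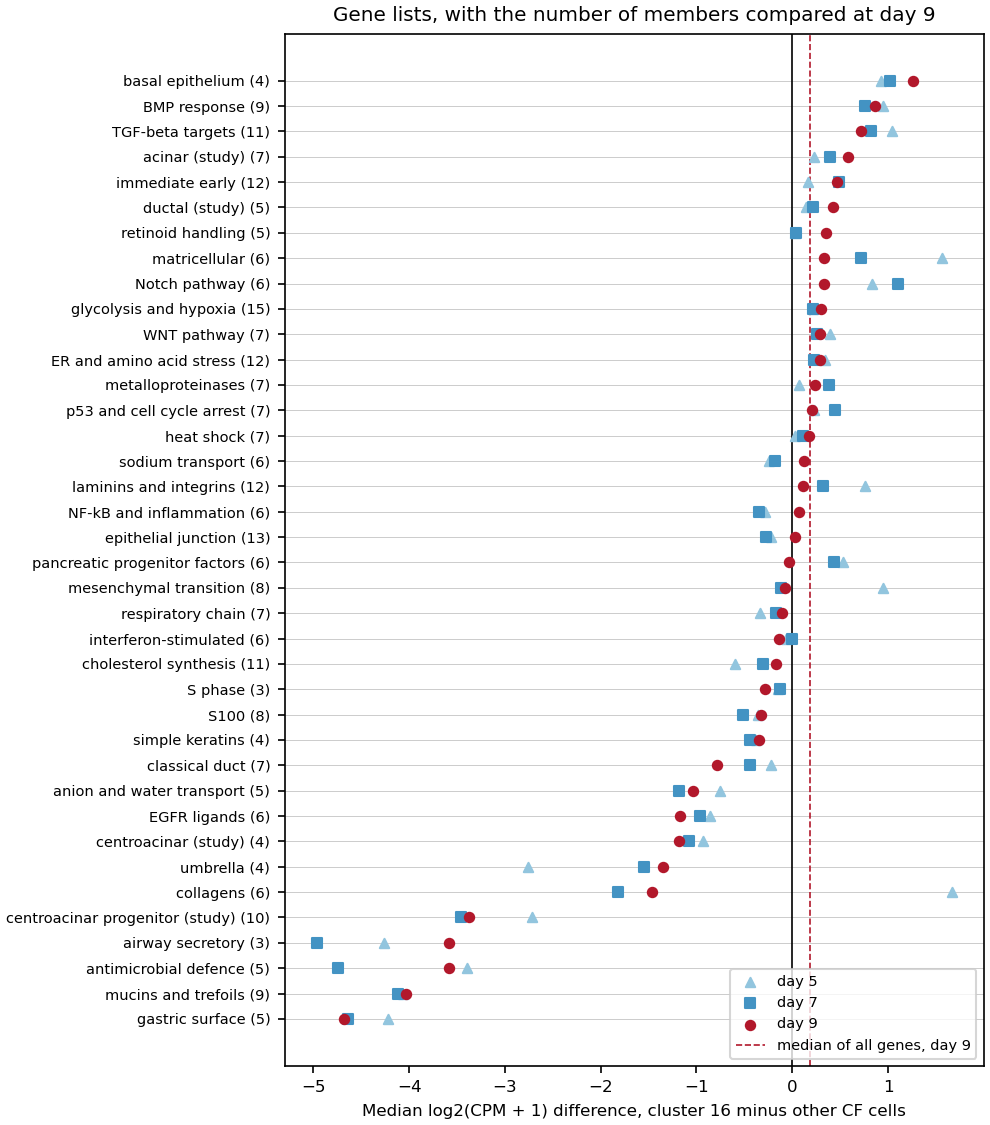
Median log2(CPM + 1) difference between cluster 16 and the other CF cells (x axis) for gene lists with at least 3 members compared at day 9 (y axis, number compared in brackets), at day 5 (triangles), day 7 (squares) and day 9 (circles). The dashed line is the median of all genes at day 9, 0.19. Mucin, gastric, antimicrobial and progenitor lists lie far to the left, where many members passed the filter in the other cells alone, and the collagen medians are of 2 genes at day 5 and 6 at day 9.

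The comparison of matrix genes depended on the day. Of the mesenchymal transition list 3 members were higher and 1 lower of 7 at day 5 (6.7% and 4.21% of all genes), and 0 were higher and 2 lower of 8 at day 9 (2.79% and 4.5%), where the median difference was −0.08. FN1, fibronectin, was at 0, 7.33 and 19.5 CPM in the cluster against 6.09, 459 and 450 CPM, and TAGLN, an actin-binding protein, at 10.7, 61.7 and 50.3 CPM against 28.1, 561 and 616 CPM. COL12A1 was at 7.40, 9.93 and 9.52 CPM against 4.07, 37.7 and 42.1 CPM. The collagens that passed the filter were not the same number on the days, 2 at day 5 and 6 at day 9, and 4 of the latter passed in the other cells alone. CCN2, a matricellular protein, was at 2408, 2361 and 2100 CPM against 893, 1340 and 1230 CPM.

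Among the 14 CF clusters with at least 20 cells at day 9, cluster 16 was closest to 2 of its class, and the other clusters were not compared in this way. Over 11001 genes at day 9, Pearson's r of log2(CPM + 1) across genes was 0.978 with cluster 14 (208 cells that day) and 0.973 with cluster 3 (521 cells), as a description, since genes are not independent. Against cluster 14, 52 genes were called higher in cluster 16 at day 9 (0.646% of 8053) and 63 lower (0.782%). At day 7 these were 1.22% and 0.783% of genes, and at day 5, when cluster 14 had 45 cells, 5.26% and 2.08%. Against cluster 3, 137 were higher at day 9 (1.68% of 8136) and 170 lower (2.09%), and at day 7 the shares were 2.78% and 2.16%.

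The genes with the largest difference between clusters 16 and 14 differed in the share of cells as well. They were taken, after their values were seen, as the 5 most different in each direction at day 9 with the same sign at day 7. HSPB1, a small heat-shock protein, was at 1720, 1556 and 1565 CPM in cluster 16 on days 5, 7 and 9 and at 57.3, 36.3 and 58.1 CPM in cluster 14, a ratio of 26.9 at day 9 (23.8 to 30.6). It was found in 352 of 354 cells of cluster 16, with a median of 30 UMIs, and in 113 of 365 cells of cluster 14, with a median of 0. SMARCA1, a chromatin remodeler, had 20.6, 27.2 and 26.3 CPM in cluster 16 and 0, 2 and 1 UMIs in cluster 14. In the other direction TGFBI, a secreted matrix protein, was at 1.64, 2.13 and 3.63 CPM in cluster 16 and at 177, 215 and 208 CPM in cluster 14. DPP4, a surface peptidase, had no UMI in any of 354 cells of cluster 16, which allows a UMI in up to 0.847% of cells by the limit of 3 counts, and was found in 135 of 365 cells of cluster 14 (37%, 32 to 42.2%). At day 9 this was at least 19.6-fold lower in cluster 16. EFEMP1, another matrix protein, was found in 10 of 354 and 181 of 365 cells.

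The same genes were then read in every CF cluster. For HSPB1, clusters 14 and 26, the latter of the ductal class, stood at 50.1 and 49.5 CPM over all days, and the other 28 clusters, cluster 16 among them, ranged from 149 to 2259 CPM. For TGFBI the pair stood at 207 and 150 CPM and the other 28 at 1.00 to 47.0 CPM. Clusters 14 and 26 lay outside the range of the other 28 for HSPB1, SMARCA1, ANKS1B, ECHDC2, EFEMP1 and TGFBI. The 10 genes had been chosen for their difference between clusters 16 and 14, which favored an extreme place of cluster 14. No rule set in advance picked cluster 26, and the share of all genes that part these clusters was not computed. For HSPB1 and TGFBI cluster 16 was at 1585 and 2.48 CPM, against medians of 563 and 8.57 CPM over the 28. Its SMARCA1 level, 25.9 CPM, was the highest of the 28, where the median was 4.29 CPM. PID1, LOXL2, DPP4 and LOC101688164 did not divide the clusters this way.

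**Figure D4:**
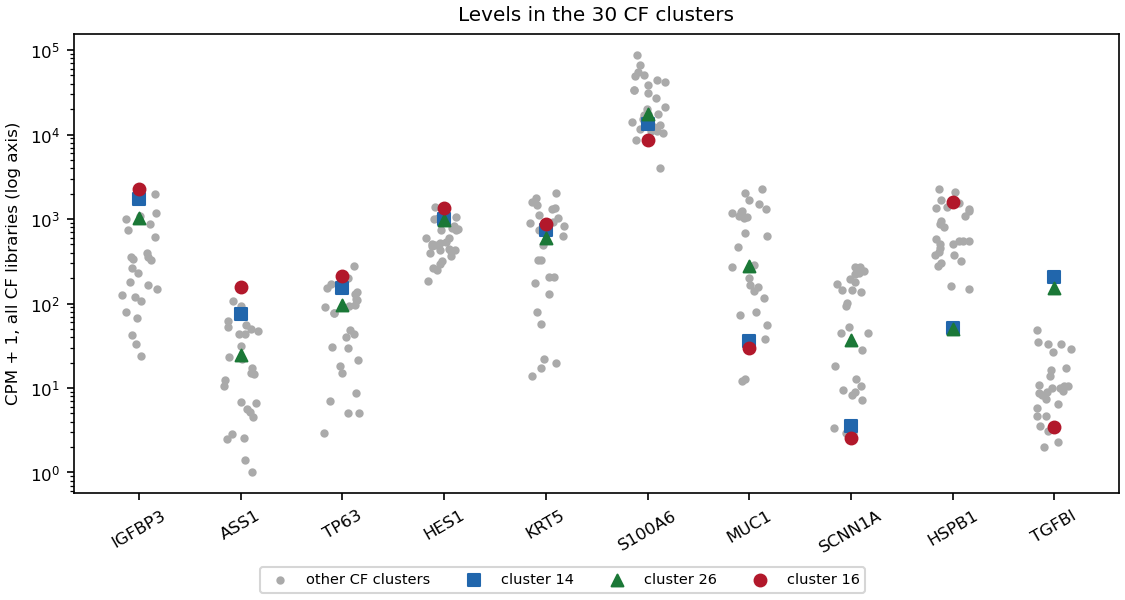
Level of 10 genes (x axis) in each of the 30 CF clusters (y axis, CPM + 1 over all CF libraries, log axis), with cluster 16 as red circles, cluster 14 as blue squares, cluster 26 as green triangles and the other clusters as grey points. Cluster 16 is highest for IGFBP3 and ASS1 and lowest for SCNN1A, and clusters 14 and 26 lie apart from the rest for HSPB1 and TGFBI.

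Against cluster 3 the genes named, chosen after their values were seen among the most different at day 9, were matrix, contractile and surface genes. FN1 was at 19.5 CPM in cluster 16 and 531 CPM in cluster 3 at day 9, a ratio of 0.037 (0.027 to 0.050), CALD1, which binds actin and myosin, was at 44.4 and 597 CPM, and TAGLN at 50.3 and 841 CPM. PAPPA, a protease that cleaves insulin-like growth factor binding proteins, was at 15.4 and 138 CPM. In the other direction AQP3 was at 323 and 47.8 CPM, a ratio of 6.77 (6.02 to 7.62), and LY6D, a surface protein of stratified epithelia, at 1686 and 398 CPM. UPK3A, a urothelial plaque protein, was at 41.7 and 7.29 CPM. At day 9 cluster 14 had 356 CPM of AQP3 and 474 CPM of TAGLN, and at day 7 it had 381 and 140 CPM.

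Within the cluster, levels also differed between days. From day 5 to day 9, 116 genes were called higher (1.41% of 8252) and 145 lower (1.76%). From day 5 to day 7 the shares were 1.1% and 0.398%, and from day 7 to day 9 they were 0.341% and 0.512%. SPP1, osteopontin, was at 186, 236 and 1770 CPM in the cluster and at 39.2, 1200 and 1948 CPM in the other cells; the others were high by day 7 and the cluster at day 9. CRABP2, which carries retinoic acid to its receptors, was at 90.5, 247 and 455 CPM, against 475, 699 and 695 CPM. SELENOP, a selenium carrier, was at 7.40, 41.6 and 77.1 CPM against 57.1, 95.6 and 80.2 CPM. CRABP2 was below the other cells on each day and SELENOP at days 5 and 7, with a ratio at day 9 of 0.961 (0.820 to 1.12), while SPP1 was above them at day 5, with a ratio of 4.74, and below them at day 7, with a ratio of 0.197. DEPP1, a target of FOXO factors, was lower on each later day, at 206, 98.8 and 38.5 CPM, against 591, 288 and 253 CPM. HEY1, a Notch target, was at 24.7, 15.8 and 4.99 CPM against 8.45, 4.65 and 3.62 CPM, and TIMP3, a metalloproteinase inhibitor, at 53.5, 51.8 and 19.0 CPM against 16.4, 13.1 and 5.96 CPM. The genes of this paragraph were chosen for their change over days after the values were seen.

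**Figure D5:**
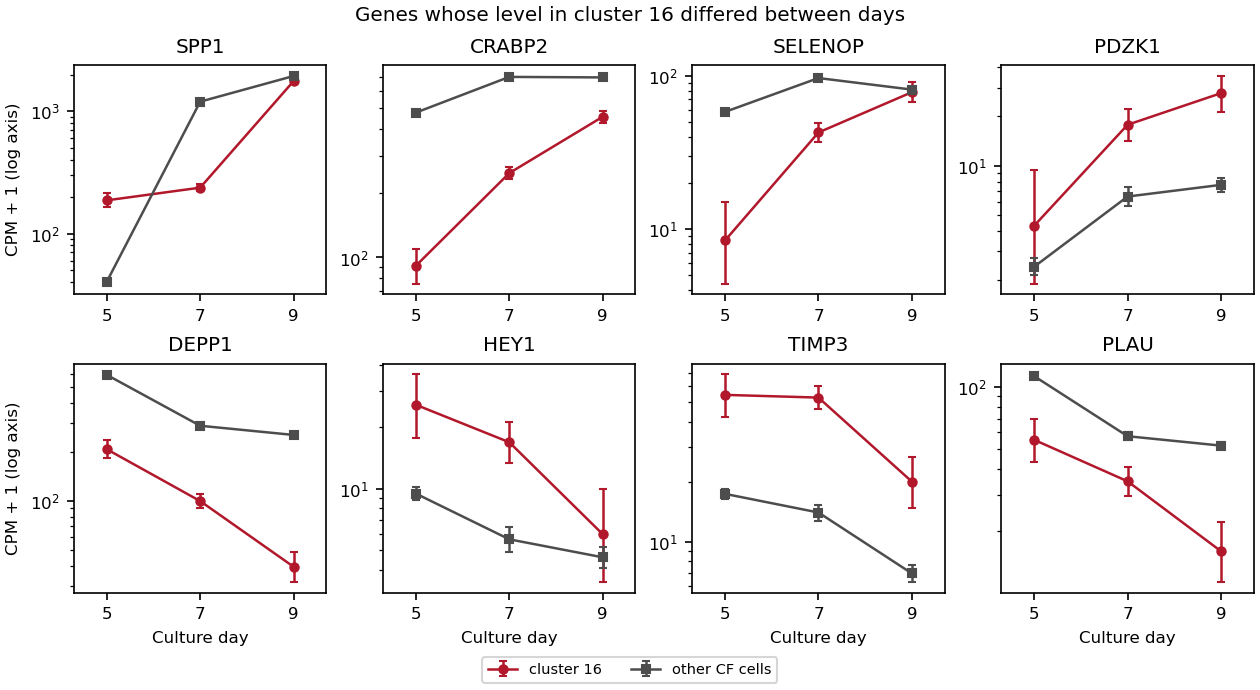
Summed level of 8 genes (y axis, CPM + 1, log axis) by culture day (x axis) in cluster 16 (red circles) and in the other CF cells (grey squares), with exact 95% Poisson intervals. SPP1, CRABP2, SELENOP and PDZK1 in the upper row were higher at day 9 than at day 5 in cluster 16, and DEPP1, HEY1, TIMP3 and PLAU in the lower row were lower.

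Some transcripts were unevenly spread over the cells of the cluster. After thinning to 3000 UMIs per cell, the index of dispersion (variance over mean) had a median over 2115 genes of 1.03, 1.05 and 1.04 on the 3 days, but genes of few UMIs give an index near 1 however cells differ, and the index grows with the mean. LY6D had the largest index that held on all days, 10.3, 6.61 and 9.14. At day 9 its median over members was 910 CPM, with a 10th percentile of 49.4 and a 90th of 3858 CPM. The chaperone CLU had 3.80, 7.46 and 8.74. SPP1 had 4.77, 3.79 and 12.6, with a thinned mean of 0.387, 0.638 and 5.34 UMIs, and the share of members with a UMI was 48.4%, 59.2% and 94.1%. IGFBP3 had 3.25, 4.32 and 5.77 and was found in 117 of 118 cells at day 9, with a 10th percentile of 741 and a 90th of 5352 CPM. S100A6 ranged from 6290 to 16010 CPM between these percentiles in the cluster and from 6523 to 91088 CPM in the other cells. The medians were 9307 and 16741 CPM, so the 2 sets differed least at the low end and most at the high end.

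On the trajectories that the study deposited, each of the 354 members had a score on CF lineages 4 and 11 of 13. On lineage 4 their median score was 26.6, the seventh of the 10 clusters with most of their cells on it, before clusters 5, 3 and 11. By day the medians were 25.4, 26.6 and 28.7, on a lineage that runs from 1.11 to 166. On lineage 11 the median was 29.5, the fourth of 5 clusters. Of the same cells, 278 also had a score on lineage 6, 279 on lineage 8, 134 on lineage 5, 7 on lineage 9 and 10 on lineage 12. The scores were computed from the same expression values that made the clusters.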

How the data were processed

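Single cells of CF cultures were profiled in 1 library per day with the 10x 3' assay. Per the submitters' notes, the authors ran Cell Ranger 5.0.1 (assembly ASM1176430v1.1). Cells had to show 200 or more genes and no more than 20% mitochondrial reads, DoubletFinder removed doublets, and Seurat under R 4.1.2 clustered each genotype separately. The deposited counts are raw UMI counts per gene and cell, the deposited percent values are mitochondrial shares, and the deposited lineage score of a cell is its slingshot pseudotime. Class names are the authors' own. The deposited log-normalized table and the WT libraries were not used here. Retained CF libraries held 34735952 to 102328589 UMIs.

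Here UMIs were summed per cluster and library and turned into CPM, and differences are of log2(CPM + 1). Genes with at least 10 CPM on either side were compared, and a gene was called at 2-fold. With 1 library per day no test was made. Intervals are exact at 95% (Poisson for sums, conditional binomial for ratios, Clopper-Pearson for shares) and cover counting error only. A fold against 0 UMIs uses 3 counts as floor. Cells were thinned to 3000 UMIs for shares and dispersion. The free RNA in droplets was not estimated. Strand use and reads shared between paralogs in the authors' counting were not examined, so close paralogs are uncertain.

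Named genes were the 15 highest and 10 lowest at day 9 with the same sign on all days and at least 30 UMIs, the 5 with the largest fold over the next cluster, up to 4 of the most different members per list, and the study's centroacinar and ductal markers with CFTR, PDX1, SOX9, HES1, PAX6 and SOX2. Genes outside this rule are said to be chosen after their values were seen. The members and the 52 lists were chosen with earlier results of these data known. Alternatives were TMM (edgeR 4.0.16) and DESeq2 1.42.0 scaling, a pseudocount of 5 CPM, no filter, cells of at least 3000 UMIs, equal weight per cell or per cluster, and other centroacinar cells as the comparator. The scripts, in Python 3.11.15 and R 4.3.3, were tested on simulated data. A few list members are not reported here.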

Additional observations from a re-analysis of the deposited data

Results flagged for a closer look

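COL4A1, a basement membrane collagen, was the 1 gene picked by the naming rule that was at least 2-fold apart in opposite directions on 2 days with both counting intervals clear of equality. The log2(CPM + 1) difference between cluster 16 and the other CF cells was 1.68 at day 5 and −2.09 at day 9. Its level in the cluster was 4.93 CPM at day 5 (6 UMIs), 7.33 CPM at day 7 and 6.35 CPM at day 9 (14 UMIs), and in the other cells it was 0.85, 29.1 and 30.3 CPM, so at day 5 both sides were under 10 CPM. The difference between days was not tested, since each day is 1 library. Over all genes compared on any day, 11 of 8727 met the same criterion. Among genes chosen after their values were seen, 2 met it too. DPYSL3, a cytoskeletal regulator, differed by 1.70 at day 5 and −2.18 at day 9, with 20.6, 8.75 and 4.53 CPM in the cluster against 5.65, 21.8 and 24.1 CPM. SPP1 differed by 2.22 at day 5 and −2.34 at day 7. These differences between days were not tested either.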

How the results depend on the processing

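No paired analysis was possible because each genotype and day is 1 library and no test was made. Of 84 named genes called at day 9, each kept its direction in all alternatives, and 621 of their 672 values still passed 2-fold. JAG2 came nearest to 0, at 0.05 on the log2 scale with equal weight per cluster. With TMM the genes called higher numbered 219 at day 5, 108 at day 7 and 116 at day 9, and those lower 605 at day 5. With DESeq2 size factors they were 220, 107 and 117, and 597. A pseudocount of 5 CPM gave 308, 111 and 132 higher. Without a filter on low values, 1122, 323 and 451 were higher and 848, 620 and 760 lower. Against other centroacinar cells alone, 215, 51 and 149 were higher, and 175 and 138 lower at days 5 and 7. Equal weight per cell gave 119 higher at day 7 and 146 at day 9, and equal weight per cluster 128 at day 9. Among cells of at least 3000 UMIs the day 7 share of cluster 16 was 14.5%. Leaving out the shallow clusters, an alternative chosen after seeing the data, turned no direction. Of 116 list medians recomputed, 60 moved by more than their spread over days. A reversal was counted only for lists with a day 9 median of at least 1 in either direction, and there were 0. Smaller medians that changed sign were not counted as reversed. The limits are 1 library per day, few cells at day 5, donors that were not separated, and clusters made from the same counts.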
